A study of Drosophila melanogaster with 2 samples.

Results

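The genes described here code for proteins that make up or bind the nucleosomes of the early Drosophila melanogaster embryo: the embryonic linker histone dBigH1 itself (gene CG3509, now named BigH1), the HMG box proteins HmgD and HmgZ, and the single-copy histones His2Av, His3.3A, His3.3B, His4r and cid. They were chosen by name, with earlier results of these data known, and they are 8 of the 15627 genes in the table. The symbol matched exactly for 5 of them. For His3.3A, His3.3B and His4r the symbol cell lists several genes, and the rows were identified by the gene name in their description. Embryos of the w1118 stock, a white-eyed laboratory strain, were collected 0 to 2 h after fertilization. DNA precipitated with an antibody against dBigH1 gave 1 library and input DNA, taken without an antibody, gave 1 library. With a single library a group, nothing measures the spread between replicates, and no p-values were computed. Reads summed over the 15627 genes came to 5206548 in the ChIP and 3696767 in the input. Of these genes, 6566 overlap another, and reads of genes with the same span count more than once in these sums.

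A linker histone binds the DNA that enters and leaves a nucleosome and helps to fold chromatin. In Drosophila, dBigH1 takes this place in the first divisions, before the embryo transcribes its own genome, and the somatic linker histone His1 replaces it afterwards. HMG box proteins bend DNA and are also abundant in chromatin at that time. Variant histones are made outside the main histone gene cluster and can enter nucleosomes without DNA replication. The values below are about how much dBigH1 lay over the genes, not about how much of each protein was made.

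Signal is given in RPKM, reads per kb of the whole gene (introns included), scaled by the depth of the library. The ratio is log2 of (ChIP RPKM + 1) over (input RPKM + 1), which understates differences of genes with low signal. Ratios of pooled reads and differences between genes are on the log2 scale of reads, with no 1 RPKM added. Their values therefore spread wider than the ratios of single genes and are not on quite the same scale. Each 95% interval of a ratio is an exact binomial interval of the ChIP share of a gene's reads, and it covers counting error only. Intervals given for a median are taken over the genes of the set instead. How duplicate reads were treated is not known, and any PCR copies kept would not be independent molecules. Each library came from whole embryos, so less dBigH1 in all nuclei and none in a part of them cannot be told apart. Over all genes the median ratio, called the genome-wide median below, was -0.04, with quartiles of -0.23 and 0.14.

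The pair HmgD and HmgZ had less dBigH1 ChIP signal than input by more than counting error, while the gene of dBigH1 itself had about as much of one as of the other. From the lowest ratio to the highest, the order was HmgZ (-0.59), HmgD (-0.58), His3.3A (-0.37), cid (-0.19), His3.3B (-0.18), His2Av (-0.16), His4r (-0.11) and CG3509 (0.04). Neighbours in this order had overlapping intervals. The intervals of HmgZ and HmgD lay below the genome-wide median, which 9.59% of all 15627 genes did, and none of the 8 lay above it by interval, as 10.6% of all genes did. The other 6 intervals included that median. More reads narrow an interval, and HmgD and HmgZ had 191 and 409 input reads against a median of 74 over all genes. None of the 8 reached a 2-fold difference, as 1.17% of all genes did downward and 0.787% upward. The median over the 8 was -0.19, and 7 of them lay below the genome-wide median. The interval for the median over the 8, -0.59 to 0.04, included the genome-wide median.

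**Figure D1:**
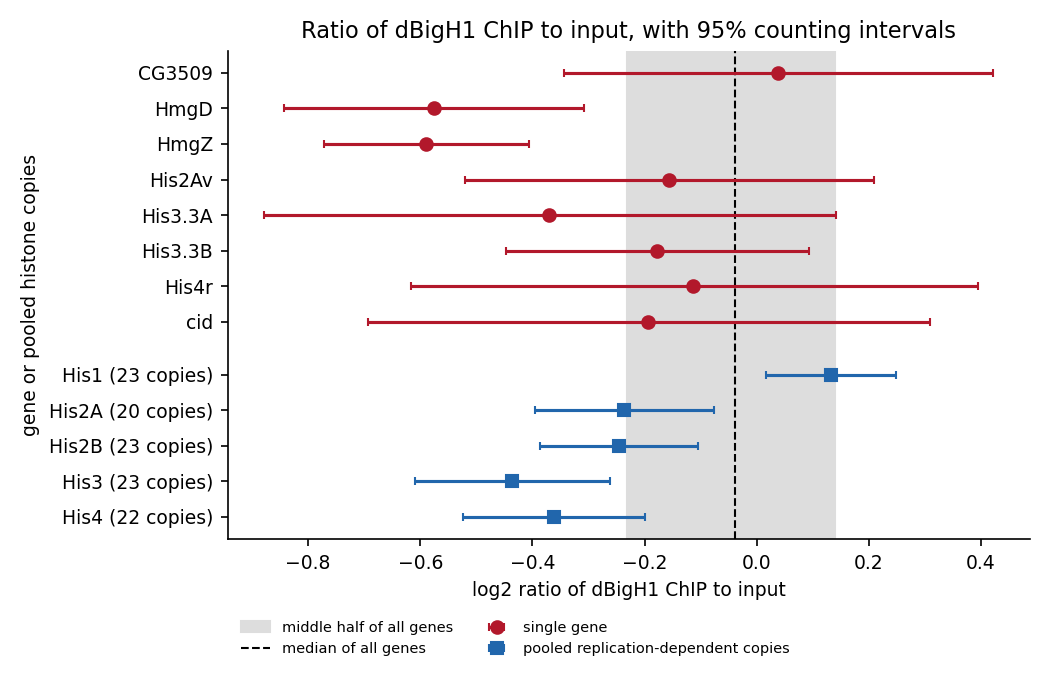
The log2 ratio of dBigH1 ChIP to input (horizontal axis) is shown for each of the 8 genes (circles) and for the pooled copies of each replication-dependent histone (squares), with 95% intervals for counting error; the band spans the quartiles of all genes and the dashed line is their median (-0.04). The squares have no 1 RPKM added, unlike the circles, the band and the line. HmgD and HmgZ lie wholly to the left of that line, the intervals of the other 6 genes cross it, and the His1 copies lie to its right.

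CG3509 codes for dBigH1. It lies at 3R 10489165 to 10490544 on the dm3 build, on the + strand, is 1380 bp wide and overlaps no other gene of the table. It had 117 ChIP reads (9.63 RPKM) and 81 input reads (9.36 RPKM). Both levels were high among genes, at the 95.1st percentile of ChIP RPKM and the 92.5th of input RPKM, and they did not differ beyond counting error. The ratio of 0.04 (interval -0.34 to 0.42) stood at the 61.3rd percentile of all genes and the 60.1st of the 3683 genes on the same arm. On the linear scale this is 1.03-fold (0.79 to 1.34), so at this depth neither a modest gain nor a modest loss of its own product over the gene was detectable.

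The somatic linker histone His1 is encoded by 23 near-identical copies in the histone cluster on 2L, and reads of such copies cannot be assigned to one of them with certainty. Their pooled reads, 1542 in the ChIP and 1002 in the input, gave a log2 ratio of 0.13 (0.02 to 0.25). CG3509 differed from this by -0.09 (-0.53 to 0.35) on the log2 scale of reads, an interval that includes 0. Of the single His1 copies, 17 had a higher ratio than CG3509 and 6 a lower one, and all 23 intervals included the value of CG3509. At this depth the ratios of the early and the later linker histone genes could not be told apart.

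The genes most like CG3509 in their pair of log2 RPKM values, among 7825 genes with a single symbol and no overlap, were malpha (distance 0.01), CG33919 (0.02) and AP-1sigma (0.03). Likeness was the straight-line distance over the 2 libraries. The Notch pathway gene malpha, in the E(spl) complex, reached 9.58 RPKM with the antibody and 9.43 RPKM without it. CG33919 had 9.59 and 9.19 RPKM, and AP-1sigma, which codes for a subunit of a clathrin adaptor, had 9.40 and 9.36 RPKM.

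HmgD and HmgZ code for closely related small proteins with 1 HMG box each. HmgD lies at 2R 17600836 to 17604230 on the + strand (3395 bp) and HmgZ at 2R 17585056 to 17591993 on the - strand (6938 bp), and neither overlaps another gene of the table. HmgD had 170 ChIP reads (5.69 RPKM) and 191 input reads (8.97 RPKM). HmgZ had 361 ChIP reads (5.91 RPKM) and 409 input reads (9.40 RPKM). Both genes combined a high input with a ChIP level below the genome-wide median, 6.38 RPKM. In input RPKM they stood at the 90.7th and 92.7th percentiles, and in ChIP RPKM both stood under the 50th, with HmgD at the 33.0th. The input levels of HmgD, HmgZ and CG3509 were thus alike, between 8.97 and 9.40 RPKM, while their ChIP levels were not.

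**Figure D2:**
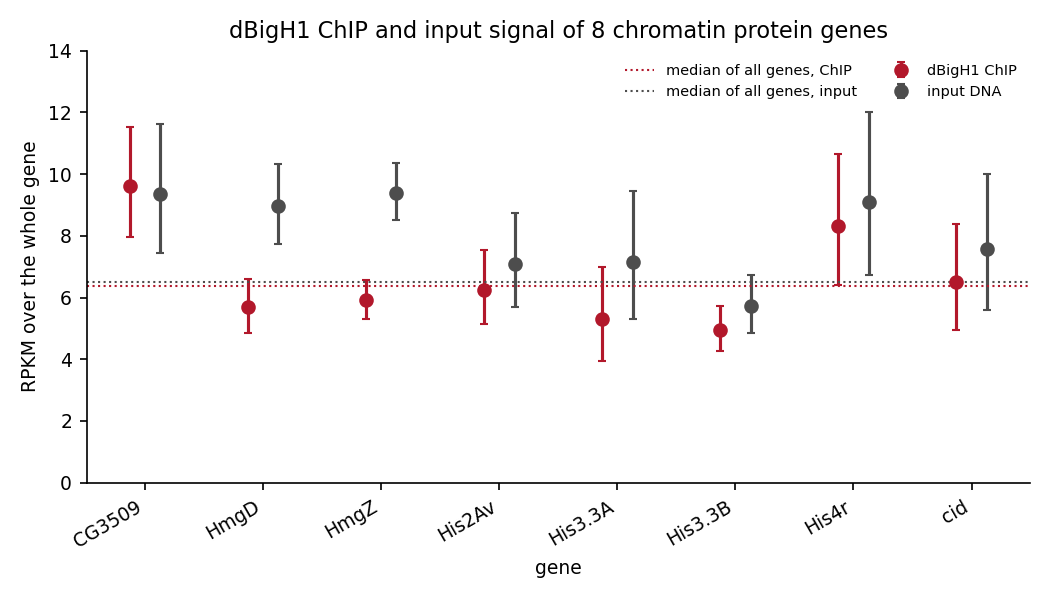
RPKM over the whole gene (vertical axis, from 0) is shown for each of the 8 genes in the dBigH1 ChIP library and in the input library, 1 library each, with exact 95% Poisson intervals of the reads; dotted lines are the medians of all genes (6.38 RPKM in the ChIP, 6.51 in the input). The intervals of ChIP and input do not overlap for HmgD (5.69 and 8.97 RPKM) and HmgZ (5.91 and 9.40 RPKM) and do overlap for the other 6 genes.

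The ratio of HmgD was -0.58 (interval -0.84 to -0.31), or 0.67-fold, and that of HmgZ was -0.59 (-0.77 to -0.41), or 0.66-fold. The 2 genes differed from each other by 0.01 on the log2 scale of reads, with an interval of -0.36 to 0.38. Among all genes they stood at the 5.44th and 5.10th percentiles, and on arm 2R at the 6.86th and 6.58th. With the genes split into 10 classes of equal size by width, HmgZ stood lower: 4 of the 1563 genes in its class (5553 to 12463 bp) had a lower ratio. For HmgD, 31 of the 1561 genes in its class did (2411 to 3419 bp). Against CG3509 the difference in reads was -0.70 (-1.23 to -0.17) for HmgD and -0.71 (-1.19 to -0.24) for HmgZ, comparisons made after their values were seen.

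The HmgD and HmgZ genes are neighbours. They lie 8842 bp apart, pointing away from each other, with 1 gene of the table, CG30403 (-0.25, interval -0.59 to 0.08), between them. To the right of HmgD, Tango11 begins after 54 bp and had -0.29 (-0.56 to -0.01). Further on came CG30398, which lies within Tango11 (-0.75, interval -1.29 to -0.21), and LBR, the gene of the lamin B receptor of the nuclear envelope (-0.35, interval -0.62 to -0.09). To the left of HmgZ, CG17922 ends 398 bp away and had a ratio near the genome-wide median, -0.05 (-0.29 to 0.19). Beyond it, low ratios came again: Ppcdc and CG42496, which have the same span in the table and so the same reads, had -0.62 (-1.09 to -0.14), and Tbp, the gene of the TATA-binding protein, had -0.52 (-0.98 to -0.05).

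Within 25 kb of either end of HmgD, the 12 other genes had a median ratio of -0.27, with 5 below the genome-wide median by interval and 0 above. For HmgZ the 15 other genes had a median of -0.29, with 6 below and 0 above, and most of these genes are in both windows. Each window counts the other gene of the pair, which is among those below. Ppcdc and CG42496, which share their reads, are in both windows and each count as below. Fragments were selected at 300 to 350 bp, so reads near the edge of a gene can come from fragments that reach into the next one. The part of this in the values of such close neighbours was not tested.

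**Figure D3:**
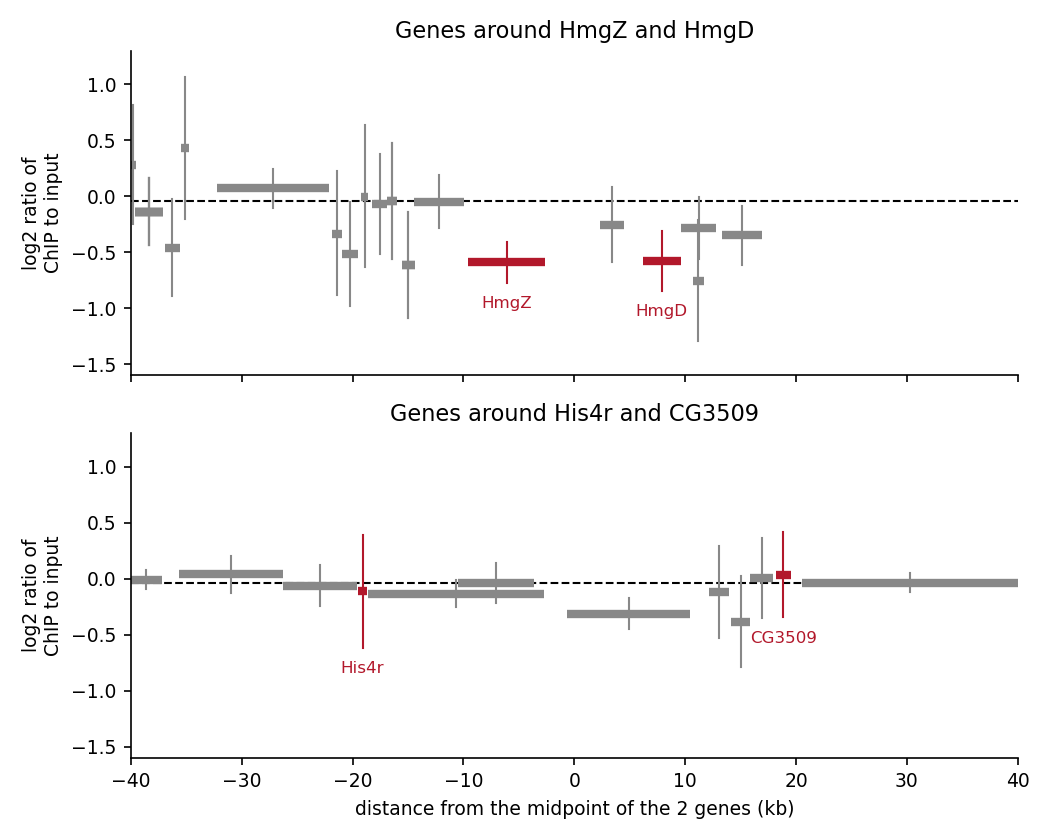
Each bar is a gene, drawn from start to end by its distance in kb from the midpoint of a pair of genes (horizontal axis) at its log2 ratio of dBigH1 ChIP to input (vertical axis), with a thin line for its 95% interval; the dashed line is the genome-wide median. In the upper panel HmgZ (-0.59) and HmgD (-0.58) lie below the line, as do most other genes on both sides of them, some as low as the pair; in the lower panel His4r (-0.11) and CG3509 (0.04) lie close to it, as do most genes around them.

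His3.3A and His3.3B code for the replacement histone H3.3, which is deposited at active genes and in the male genome at fertilization. His3.3A lies at 2L 5055058 to 5056149 (+ strand, 1092 bp) and had 51 ChIP reads (5.30 RPKM) and 49 input reads (7.15 RPKM). His3.3B lies at X 9046556 to 9050721 (- strand, 4166 bp) and had 182 ChIP reads (4.96 RPKM) and 150 input reads (5.74 RPKM), the lowest level of the 8 genes in both libraries. Genes on the X were low in both, with median RPKM of 4.62 in the ChIP and 5.06 in the input. Over all genes these medians were 6.38 and 6.51, so His3.3B was not low for the X. His3.3A and His3.3B both had a lower RPKM in the ChIP than in the input, but neither beyond counting error.

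The ratio of His3.3A was -0.37 (interval -0.88 to 0.14) and stood at the 13.6th percentile of all genes. It is the only one of the 8 genes that another gene overlaps: 168 bp of it are shared with CG31918 (-0.27, interval -0.60 to 0.07), and reads there cannot be given to one or the other. His3.3B had -0.18 (-0.45 to 0.09), at the 30.7th percentile of all genes and the 41.9th on the X, where the median gene had -0.14. The genes differed by -0.22 on the log2 scale of reads, with an interval of -0.90 to 0.46 that includes 0. Each was also set against the pooled reads of 23 replication-dependent His3 copies, which had a log2 ratio of -0.44 (-0.61 to -0.26). With no 1 RPKM added on either side, His3.3A differed from these by 0.005 (-0.62 to 0.63) and His3.3B by 0.23 (-0.14 to 0.59).

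Around both H3.3 genes the median ratio of nearby genes lay under the genome-wide median. Both neighbours of His3.3B were lower than His3.3B itself and lay below the genome-wide median by interval. These were dalao (-0.75, interval -1.15 to -0.35), which codes for the HMG box subunit of the Brahma remodelling complex, and Ost48 (-0.77, interval -1.25 to -0.29), which codes for a subunit of the oligosaccharyltransferase. Of the 9 other genes within 25 kb of His3.3B, 7 had a lower ratio, down to -1.01 for Dip1. The median of the 9 was -0.32, with 4 below the genome-wide median by interval and 0 above. Around His3.3A the 17 other genes had a median of -0.15, from -0.33 to 0.22, and none was lower than His3.3A. The nearest on its left, CG14036, 41 bp away, was the highest of them (0.22, interval -0.56 to 1.01), and the nearest on its right with no overlap was the proteasome gene Rpn11 (-0.24, interval -0.69 to 0.21). None of these 17 lay off the genome-wide median by interval.

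cid codes for the centromeric H3 variant, which marks the place where the kinetochore forms. It lies at 2R 9373106 to 9374136 (+ strand, 1031 bp) and had 59 ChIP reads (6.50 RPKM) and 49 input reads (7.58 RPKM). Its ratio was -0.19 (interval -0.69 to 0.31), at the 29.0th percentile of all genes. It differed from the pooled His3 copies by 0.21 (-0.38 to 0.82), an interval that includes 0. The neighbours cbc, which ends 204 bp away (-0.10), and bbc, which begins after 2 bp (0.02), had ratios close to the genome-wide median. Within 25 kb the lowest ratio was that of EfTuM, the gene of the mitochondrial elongation factor Tu, at -0.98, the lowest of 8 genes with a median of -0.08. Of these 8 genes, 2 lay below the genome-wide median by interval and 0 above.

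His2Av codes for the only H2A variant of Drosophila, which combines the roles that other animals divide between H2A.Z and H2A.X. It lies at 3R 22692653 to 22694630 (+ strand, 1978 bp) and had 109 ChIP reads (6.26 RPKM) and 88 input reads (7.09 RPKM). The ratio of -0.16 (interval -0.52 to 0.21) stood at the 33.3rd percentile. It differed from the pooled reads of 20 replication-dependent His2A copies, whose ratio was -0.24 (-0.40 to -0.08), by 0.06 (-0.39 to 0.51). On its left, ball, which codes for a kinase of histone H2A, had -0.07, and on its right BM-40-SPARC, which codes for a protein of basement membranes, had 0.02. The 11 other genes within 25 kb had a median of 0.02.

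His4r codes for histone H4 from a gene outside the cluster. It lies at 3R 10451477 to 10452336 (+ strand, 860 bp), 36.8 kb to the left of CG3509 with 6 genes between them. It had 63 ChIP reads (8.32 RPKM) and 49 input reads (9.08 RPKM), and like CG3509 it was high in both libraries, at the 88.5th and 91.3rd percentiles. Its ratio was -0.11 (interval -0.62 to 0.40). The 22 replication-dependent His4 copies pooled to -0.36 (-0.52 to -0.20), from which His4r differed by 0.24 (-0.35 to 0.83).

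Around His4r and CG3509 most genes had ratios near the genome-wide median. The neighbours of His4r were put, a receptor gene of the activin and Dpp pathways (-0.06), and CG7886 (-0.13). Those of CG3509 were Rad17, which codes for a protein of the DNA damage checkpoint (0.01, interval -0.35 to 0.37), and Neu3 (-0.04, interval -0.12 to 0.05, from 2140 ChIP and 1568 input reads). All 7 other genes within 25 kb of CG3509 had a lower ratio than it, with a median of -0.12. Of these, 1 lay below the genome-wide median by interval, l(3)L1231 (-0.31, interval -0.45 to -0.17).

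Genes that act with these proteins were taken from 8 lists, and their medians lay below that of all genes in 7. For several of these lists the interval for the median included the genome-wide median. These were remodellers (-0.34 to 0.002), Tip60 and Domino (-0.31 to 0.004), centromere (-0.34 to 0.09) and HMG box genes (-0.54 to -5.7e-05). It lay below for chaperones (-0.47 to -0.13), methyltransferases and demethylases (-0.32 to -0.10) and replication-dependent histone genes (-0.32 to -0.09). The lists share genes, such as Acf1, dom and dalao, so they are not separate observations. The HMG box list also holds HmgD and HmgZ, and the centromere list holds cid. The list medians describe the genes and are not tests, and they are to be read beside the 9.59% of all genes with an interval below the median. On the X this share was 15.9% and the median ratio -0.14, and the lowest genes of 4 lists named below, Chrac-16, Ing3, dalao and Hmt4-20, are X-linked. Genes with more reads have narrower intervals, so counts by interval also depend on reads. Median input reads were 178 for chaperones, 250 for remodellers, 209 for HMG box genes and 287 for methyltransferases and demethylases, against 74 for all genes. They were 77 for Tip60 and Domino, 81 for centromere, 44 for sperm chromatin and 30 for replication-dependent histone genes. Histone chaperones and assembly factors, which carry histones to DNA, had the lowest median, -0.37. Of its 16 measured genes, 8 lay below the genome-wide median by interval and 0 above. The lowest was asf1 (-0.55, interval -0.95 to -0.15), a chaperone of H3 and H4. The highest was YL-1 (-0.04), whose protein binds H2Av, and it lay at the genome-wide median.

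The genes that load H3.3 were among these. Hira, the chaperone gene needed to put H3.3 into the male pronucleus, had -0.24 (interval -0.54 to 0.07). Its partner yem had -0.39 (-0.63 to -0.14) and the remodeller gene xnp, whose protein is the Drosophila counterpart of ATRX, had -0.36 (-0.59 to -0.13). The intervals of yem and xnp lay below the genome-wide median. Further assembly genes had intervals that included it: Nap1 at -0.20, Acf1 at -0.13, Nlp at -0.07 and cal1, which codes for the loading factor of cid, at -0.06 (interval -0.31 to 0.19).

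For the 21 HMG box genes the median was -0.22, and 9 lay below the genome-wide median by interval and 1 above. Without HmgD and HmgZ, the other 19 had a median of -0.14, with 7 below and 1 above. The lowest was dalao, the neighbour of His3.3B. Sox15 lay nearest the median (-0.22, interval -0.37 to -0.07), and Sox102F was the highest (0.16, interval 0.08 to 0.25). Low ratios thus also occurred among HMG box genes other than HmgD and HmgZ.

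The 21 nucleosome remodeller genes had a median of -0.21, with 9 below by interval and 1 above. They ran from Chrac-16 (-1.06, interval -1.75 to -0.36, from 19 ChIP and 33 input reads), which codes for a small subunit of the CHRAC complex, through Nurf-38 (-0.21) to Ino80 (0.05), and Iswi had 0.00. The 15 genes of the Tip60 and Domino complex, which exchanges H2Av, had a median of -0.18, with 3 below by interval and 1 above. Their pooled reads gave 0.08 (0.03 to 0.13), the opposite sign, since 4722 of the 7510 ChIP reads came from the long gene Nipped-A (0.20, interval 0.14 to 0.26). They ran from Ing3 (-0.84, interval -1.28 to -0.38) through Bap55 (-0.18) to rept (0.23), with the catalytic genes dom at -0.01 and Tip60 at -0.30. Many genes overlap dom (17 in the table).

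The 17 histone lysine methyltransferase and demethylase genes had a median of -0.21, with 6 below by interval and 1 above, from Hmt4-20 (-0.42, interval -0.62 to -0.23) through trx (-0.21) to Set1 (0.22, interval 0.04 to 0.40). The 21 centromere and kinetochore genes had a median of -0.11, with 4 below by interval and 3 above. They ran from Bub1 (-0.45, interval -0.70 to -0.21) through aurB (-0.11) to Kmn1 (0.29), and Cenp-C, whose protein binds cid nucleosomes, had 0.20 (-0.02 to 0.42). This list lay nearest to all genes.

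The 1 list with a median above that of all genes was that of sperm chromatin proteins, which replace histones in the male germ line. Its 7 genes had a median of 0.13, with an interval of -0.10 to 0.58 that includes the genome-wide median. Of these genes, 2 lay above by interval and 0 below. They ran from Mst77F (-0.10) through tHMG1 (0.13) to Tpl94D (0.58, interval 0.13 to 1.03), which had 99 ChIP reads against 44 input reads. The 111 replication-dependent histone genes had a median of -0.17, with 8 below by interval and 0 above, from few reads per copy. The share below was 7.21%, under the 9.59% of all genes. That list was split by family: the median was 0.13 for His1, against -0.19 for His2A, -0.20 for His2B, -0.33 for His3 and -0.40 for His4. As for His1, the copies of a family are near-identical, so these counts and medians do not rest on separate observations.

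**Figure D4:**
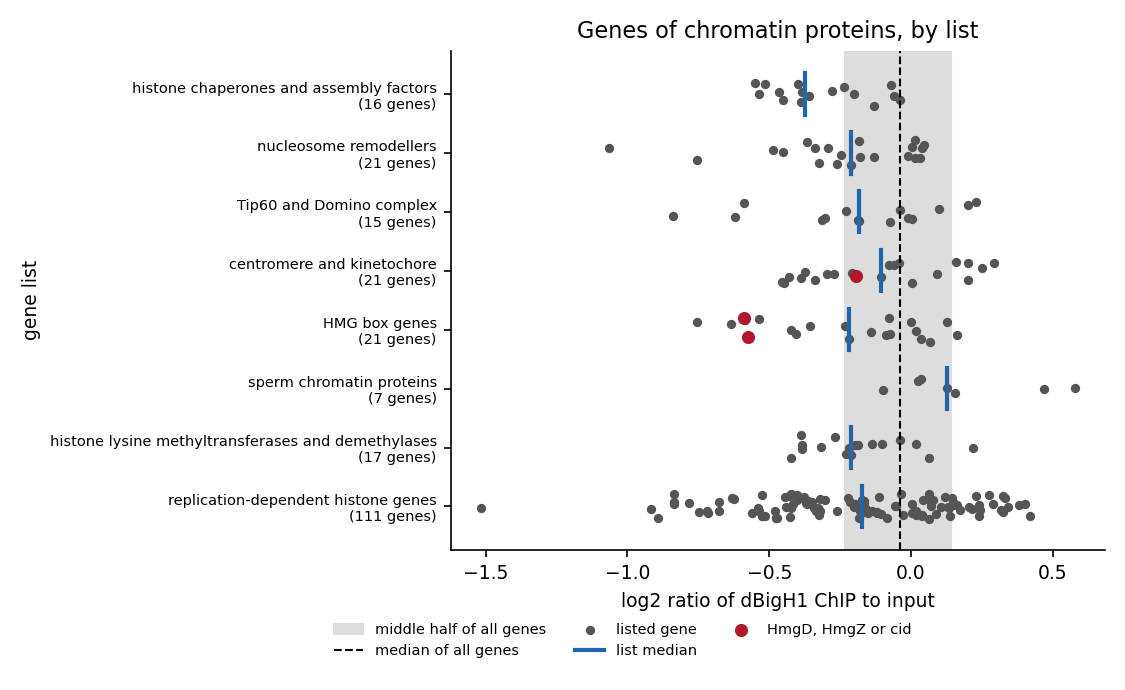
Each point is 1 gene at its log2 ratio of dBigH1 ChIP to input (horizontal axis), in rows for the 8 lists; red points are HmgD, HmgZ and cid, blue bars are list medians, the band spans the quartiles of all genes and the dashed line is their median. The 16 chaperone and assembly genes lie at or to the left of the line, and the sperm chromatin list is the only one whose median (0.13) lies to its right.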

How the data were processed

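Each library started from 3.5 ng of DNA with 18 cycles of PCR and was read in single 50 nt reads, per the labels' protocols. Bowtie2, R 2.15, CASAVA 1.9, FastQC 0.10 and build dm3 appear in the submitters' processing notes, with no role stated. The sources used here do not state how reads were counted or duplicates treated. Per the file headers, the authors deposited log2 RPKM values per gene and a MAnorm score. The score had an SD of 1.00 over all genes, so it was used only as an alternative. Subtracting 1 RPKM gave whole reads for 100% of values (tolerance 1e-05), with library totals of 8803832 and 6272887. This was not a count test: with 1 library a group no test was run. The plan's ratio was used unchanged.

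Named are the 8 genes, their nearest and overlapping neighbours, others within 25 kb that stand out (chosen after their values were seen), the 3 genes most like CG3509, and in each list the lowest, the highest, the gene nearest the median and known partners. Members and lists were chosen with earlier results of these data known. Lists were matched by table symbol or through Entrez numbers to RefSeq symbols (Release 6, names only), and Caf1, Nsl1, BubR1, Su(var)3-9 and gpp had no unambiguous match. Differences between genes (10 in all) have exact intervals of the odds ratio of reads. Those of HmgD and HmgZ from CG3509, and of the core histone variants from the clustered copies, were added after the data were seen. Alternatives were other pseudocounts, centring, a lowess fit (span 0.3), filters on input and the score. Python 3.11.15, scipy 1.17.1, numpy 2.4.6, matplotlib 3.10.9, pandas 2.3.3 and statsmodels 0.14.6 were used. Ratios and intervals of single genes were run on simulated reads with the library totals given. How the totals were inferred, and the intervals of pooled reads and of differences, were not tested in this way.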

Additional observations from a re-analysis of the deposited data

How the results depend on the processing

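Of 193 values recomputed under an alternative, none reversed. Some of them could not: both filters leave the ratio of each of the 8 genes as it was, and centring shifts all genes and their median alike. HmgD and HmgZ were the 2 genes of the 8 with an interval below the genome-wide median under pseudocounts of 0, 0.1 and 5 RPKM, centring, the lowess fit and both filters on input, which all 8 genes passed. With 5 RPKM added, the ratios of HmgZ and HmgD shrank to -0.40 and -0.39. The score in the authors' deposited table, on a scale of its own, gave -1.85 for HmgD, -1.83 for HmgZ and -1.14 for His3.3A, so 3 of the 8 genes were at -1 or lower on it, and it moved 5 of the list medians. The median of the 8 genes was -0.17 without HmgD and HmgZ, an alternative chosen after seeing the data, and -0.43 for their pooled reads, to which HmgZ gave the most. No paired analysis was possible because each group had 1 library. Depth limits the short genes most: with about 50 input reads, as for cid, His4r and His3.3A, the intervals spanned about 1 log2 unit.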

Other observations

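In the Release 6 annotation of RefSeq the spans of HmgD and HmgZ overlap each other, while in the deposited dm3 table they are 8842 bp apart. The values of both genes therefore hold for the spans of that table.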
